A study of Mus musculus with 4 samples.

Results

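The 10 genes Dusp1, Dusp2, Dusp4, Dusp5, Dusp6, Dusp7, Dusp8, Dusp9, Dusp10 and Dusp16 encode the MAP kinase phosphatases (MKPs). They were taken by gene symbol from the platform annotation, which gave 18 of the 45101 probe sets and 10 of the 18193 named genes on the array. RNA came from primary keratinocytes of newborn C57BL/6 mice, labelled p38a-KO (KO-labelled below) or WT, in 4 groups of 1 array each. The groups were KO-labelled cells 4 h after ultraviolet B (UVB) at 75 mJ/cm2, unirradiated KO-labelled cells, WT cells 4 h after UVB at 75 mJ/cm2, and unirradiated WT cells. The sources used here do not give how p38alpha was removed or how many animals each culture came from. The sample titles name no mock-treated culture at 4 h, so from them UVB cannot be told apart from 4 h of handling and culture. The design asks which changes after UVB depend on p38alpha, the MAP kinase that Mapk14 encodes and that cells activate under stress.

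MKPs remove phosphate from both the threonine and the tyrosine of the MAP kinase activation loop and so switch the kinase off. Dusp1, Dusp2, Dusp4 and Dusp5 encode nuclear enzymes, and several of them are known as early targets of the kinases they inactivate. Dusp6, Dusp7 and Dusp9 encode cytoplasmic enzymes that prefer ERK, and Dusp8, Dusp10 and Dusp16 encode enzymes that prefer the stress kinases JNK and p38. In keratinocytes UVB is known to activate p38 and JNK.

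Promoter sequence from RefSeq (GRCm38.p6) was found for 8 of the 10 genes, and 5 are shown, each as the 250 bases before the start in RefSeq's promoter table; for Dusp8 and Dusp16 that start lies inside the annotated span of the gene. Dusp1 and Dusp6 had the highest signal ratios after UVB, Dusp16 had the lowest, and Dusp5 and Dusp8 had the UVB responses that differed most between the genotypes among members with over 100 units on every array. Capitals mark a cAMP response element (CRE, TGACGTCA) or a CArG box, the motif bound by serum response factor.
Dusp1: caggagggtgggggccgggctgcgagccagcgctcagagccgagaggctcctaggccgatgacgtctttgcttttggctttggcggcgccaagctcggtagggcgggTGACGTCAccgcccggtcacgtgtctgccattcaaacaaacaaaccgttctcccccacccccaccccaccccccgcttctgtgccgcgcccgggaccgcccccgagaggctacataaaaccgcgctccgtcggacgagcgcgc
Dusp6: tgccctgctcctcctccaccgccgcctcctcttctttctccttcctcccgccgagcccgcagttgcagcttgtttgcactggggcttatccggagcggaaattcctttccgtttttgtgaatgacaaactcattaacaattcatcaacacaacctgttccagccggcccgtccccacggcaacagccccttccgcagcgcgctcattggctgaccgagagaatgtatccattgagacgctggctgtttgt
Dusp16: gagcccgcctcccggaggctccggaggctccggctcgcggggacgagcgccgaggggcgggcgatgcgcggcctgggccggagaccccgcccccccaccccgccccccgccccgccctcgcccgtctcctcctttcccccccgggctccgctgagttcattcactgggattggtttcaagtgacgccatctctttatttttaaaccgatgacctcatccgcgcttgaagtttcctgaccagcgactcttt
Dusp5: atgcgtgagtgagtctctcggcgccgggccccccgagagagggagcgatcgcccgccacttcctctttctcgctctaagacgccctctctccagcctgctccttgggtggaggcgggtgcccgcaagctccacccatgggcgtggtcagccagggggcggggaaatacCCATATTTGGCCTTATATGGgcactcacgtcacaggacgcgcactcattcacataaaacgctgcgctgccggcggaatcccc
Dusp8: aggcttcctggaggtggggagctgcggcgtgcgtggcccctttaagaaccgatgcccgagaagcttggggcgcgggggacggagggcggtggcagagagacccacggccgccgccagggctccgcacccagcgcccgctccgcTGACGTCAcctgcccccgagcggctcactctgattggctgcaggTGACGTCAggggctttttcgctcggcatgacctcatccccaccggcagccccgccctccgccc
The windows are chr17:26508473-26508722 (minus strand) for Dusp1, chr10:99262981-99263230 (plus strand) for Dusp6 and chr6:134792629-134792878 (minus strand) for Dusp16. They are chr19:53528895-53529144 (plus strand) for Dusp5 and chr7:142095285-142095534 (minus strand) for Dusp8. With both strands searched, Dusp8 held 2 CREs, Dusp1 held 1 CRE and Dusp5 held 2 CArG boxes next to each other, from 82 to 63 bases before the start. Of 32851 mouse promoter windows of the same length, 1.55% held a CRE and 1.47% a CArG box. The AP-1 motif TGANTCA, present in 6.75% of all windows, and the TATA motif TATAAA, present in 12.4%, were in none of the 8 windows. A match describes these letters only and shows no binding.

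Signal is MAS5 signal per probe set on a linear scale, and the brightest probe set, by mean over the arrays, stands for each gene. Values under a floor of 24.9 units, the median probe set's mean signal, were raised to it before any fold was taken, and the 11379 genes whose mean signal reached it were tested. With 1 array a group no pairwise difference has a replicate check or a test. The test was an additive limma fit with terms for irradiation and for genotype over the 4 arrays, with 1 degree of freedom left over and p-values adjusted by Benjamini-Hochberg over all 11379 genes. Its p-values measure an effect against how far the 2 genotypes, or the 2 conditions, differ in it, pooled over genes of like signal; the spread between separate cultures was not measured. The arrays differed in median signal, with 18.7 units in irradiated and 34.5 units in unirradiated KO-labelled cells. Irradiated WT cells had 18.7 units and unirradiated WT cells 30.3 units. Whether this difference came from array scaling or from the RNA of the cells was not tested. The median log2 UVB response of all tested genes was -0.82 in KO-labelled and -0.70 in WT cells as deposited, 0.06 and 0.05 with quantile normalization, and 0.28 and 0.32 with median centring.

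The brightest Mapk14 probe set did not show less signal in KO-labelled cells, with 646.8 units after UVB and 1449 units without it, against 292.5 and 985.4 units in WT cells. Of its 6 probe sets, 3 were above the floor on all 4 arrays, and these were higher in KO-labelled than in WT cells in both conditions. A dim one was lower without irradiation, at 37.7 units in KO-labelled against 51.3 units in WT cells. Which part of Mapk14 was deleted is not stated in the labels, and a probe set outside that part checks nothing. All genotype directions here therefore rest on labels that the array could not check. Keratinocyte markers were above the floor for 11 of 11 measured genes on all 4 arrays. Among them the suprabasal keratin genes Krt1 and Krt10 were 2.44-fold and 2.59-fold higher in irradiated KO-labelled than in irradiated WT cells. Both were higher over both conditions in the fit (limma adjusted p = 0.0360 and 0.00698). The keratinocyte list as a whole was split after UVB, with 6 genes higher and 5 lower in KO-labelled cells. All tested genes had 55.9% higher and 37.9% lower. The median log2 difference of the list was 0.03. Of 8 leukocyte and 5 endothelial markers, 0 to 2 and 0 to 1 reached the floor on any array. Fibroblast markers were present, 10 or 11 of 11 above the floor. Their summed signal was 5503 units in irradiated and 8093 in unirradiated KO-labelled cells, against 3284 and 4181 units in WT cells. Melanocyte markers summed to 5637 and 8694 units in KO-labelled cells, against 4846 and 6179 units in WT cells. The part of these markers' differences in the genotype differences below was not tested. In RNA of whole cultures, fewer cells of a type and less RNA per cell cannot be told apart.

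Dusp1 and Dusp6 were higher after UVB in both genotypes, whereas Dusp7, Dusp10 and Dusp16 were lower in both, and these 5 directions were shared by the deposited values and both other scalings. In the limma fit 2 of the 10 genes rose and 6 fell, against 0.703% and 69.4% of all tested genes. Over the array that is 80 genes rising and 7899 falling as deposited, and 2306 and 2284 with quantile normalization, or 4184 and 1702 with centring. The 2 that rose were Dusp1 and Dusp6. The 6 that fell were Dusp4, Dusp5, Dusp7, Dusp9, Dusp10 and Dusp16, but Dusp5 and Dusp9 lay above 0 after quantile normalization and after centring. Dusp4 was set to the floor on both irradiated arrays, so its call could only be a fall. At 2-fold or more, 0 genes were higher and 5 lower in KO-labelled cells, where 0.167% and 39.3% of all tested genes were, and 2 were higher and 4 lower in WT cells, against 0.58% and 34.8%. Signal was below the unirradiated value at any size for 8 of 10 genes in KO-labelled cells, against 93.7% of all tested genes, and for 6 of 10 in WT cells, against 89.9%.

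**Figure D1:**
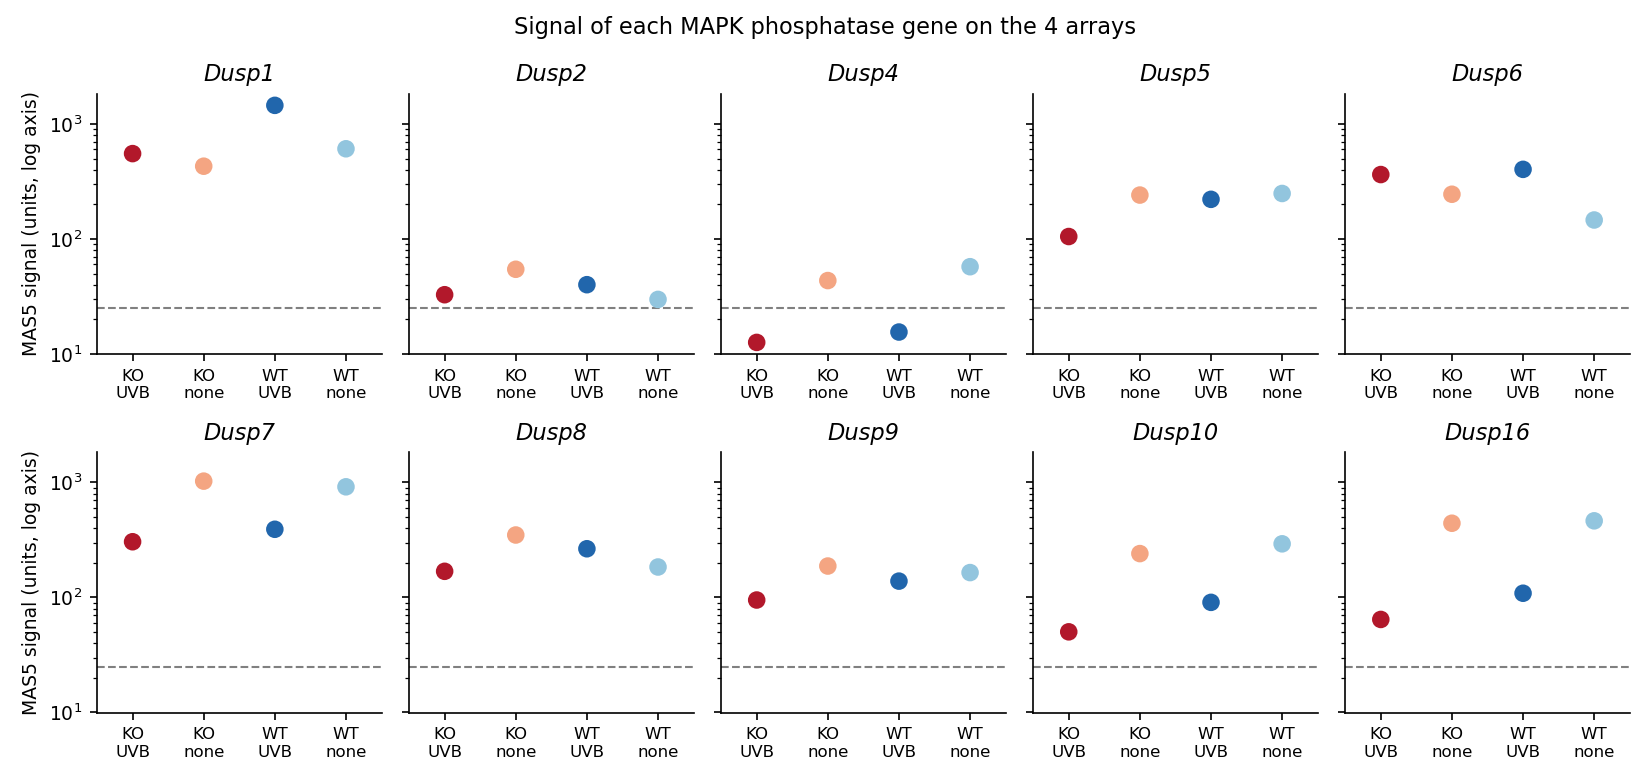
MAS5 signal (log axis) of each gene's brightest probe set on the 4 arrays, 1 point an array, with the floor of 24.9 units as a dashed line; "none" means unirradiated. Dusp1 peaks in irradiated WT cells at 1450.1 units and Dusp4 lies under the floor on both irradiated arrays; heights of different genes come from different probes and are not comparable.

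Among the nuclear enzymes, Dusp1 (MKP-1), which acts on p38, JNK and ERK, had 551.9 units after UVB and 428.9 without it in KO-labelled cells, against 1450.1 and 608.0 units in WT cells. Both irradiated arrays were above the unirradiated array of their genotype, and irradiated WT cells stood highest. Dusp1 was 1.29-fold higher after UVB in KO-labelled cells and 2.39-fold higher in WT cells. Over both genotypes it rose by 0.81 in log2 signal (limma SE 0.19 and adjusted p = 0.00379), and with only irradiation in the model the call was lost (limma adjusted p = 0.167). Relative to the median of all tested genes, its response was 1.18 higher on the log2 scale in KO-labelled and 1.96 higher in WT cells. It lay at percentile 98.6 of all responses in KO-labelled and 99.7 in WT cells.

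Dusp5, a nuclear phosphatase specific for ERK, had 105.0 units after UVB and 240.7 units without it in KO-labelled cells, against 221.0 and 248.4 units in WT cells. Only the irradiated KO-labelled array was low, and the other 3 lay close together. The fold was 2.29-fold lower after UVB in KO-labelled cells and 1.12-fold lower in WT cells. Dusp5 fell by 0.68 in log2 signal over both genotypes (limma SE 0.23 and adjusted p = 0.0255). Its response lay 0.38 below the median of all genes in KO-labelled cells and 0.54 above it in WT cells, and its fitted effect was 0.33 after quantile normalization and 0.42 after centring. The call was also lost without the intensity trend (limma adjusted p = 0.0895), with only irradiation in the model (limma adjusted p = 0.145) and with the mean over probe sets (limma adjusted p = 0.0570).

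Dusp2 (PAC-1), a nuclear phosphatase best known from activated lymphocytes, was near the floor throughout. It had 32.7 units after UVB and 54.5 without it in KO-labelled cells, against 40.02 and 29.8 units in WT cells. UVB values were lower than unirradiated ones in KO-labelled cells and higher in WT cells, and the fitted effect of -0.15 did not pass (limma adjusted p = 0.683). That effect turned to 0.79 after quantile normalization (limma adjusted p = 0.0892) and to 0.86 after centring, where it passed (limma adjusted p = 0.0415). Dusp4 (MKP-2), a nuclear phosphatase of ERK, JNK and p38, had 12.6 units after UVB and 43.5 units without it in KO-labelled cells, against 15.5 and 57.4 units in WT cells. Both irradiated values were below the floor, so Dusp4 was at least 1.75-fold lower after UVB in KO-labelled cells and at least 2.30-fold lower in WT cells. Dusp4 was tested only because its unirradiated values lifted its mean signal above the floor. With irradiated values set to the floor its fitted effect could only be a fall. That fall of 1.0 in log2 signal (limma adjusted p = 0.0102) is therefore no separate support. The fitted effect stayed below 0 without passing after quantile normalization (limma adjusted p = 0.160) and centring (limma adjusted p = 0.202).

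Among the cytoplasmic enzymes that prefer ERK, Dusp6 (MKP-3), a feedback inhibitor of ERK signalling, had 362.9 units after UVB and 244.6 without it in KO-labelled cells, against 402.7 and 146.1 units in WT cells. The 2 irradiated arrays were close to each other and above both unirradiated ones. Dusp6 was 1.48-fold higher after UVB in KO-labelled cells and 2.76-fold higher in WT cells. It rose by 1.02 in log2 signal over both genotypes (limma SE 0.21 and adjusted p = 0.00186), the highest fitted UVB effect of the 10 genes. Its response stood at percentile 99.2 of all tested genes in KO-labelled and 99.8 in WT cells.

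Dusp7 (MKP-X) moved the other way, with 304.9 units after UVB and 1026 units without it in KO-labelled cells, against 391.4 and 915.8 units in WT cells. Both irradiated arrays were low, and the folds were 3.36-fold lower in KO-labelled and 2.34-fold lower in WT cells. Dusp7 fell by 1.49 in log2 signal (limma SE 0.15 and adjusted p = 2.74e-05). Its 3 probe sets gave log2 responses between -2.04 and -1.67 in KO-labelled cells and between -1.73 and -1.09 in WT cells, so they shared a direction. Probe sets of 1 gene read the same transcript and are not replicates. Dusp9 (MKP-4) had 94.98 units after UVB and 187.5 without it in KO-labelled cells, against 138.6 and 164.5 units in WT cells. It fell by 0.61 in log2 signal in the fit (limma SE 0.21 and adjusted p = 0.0277). Its fitted effect was 0.46 after quantile normalization and 0.49 after centring, neither past the threshold. The call was also lost without the intensity trend (limma adjusted p = 0.0663) and with only irradiation in the model (limma adjusted p = 0.0747). The 3 Dusp9 probe sets differed in size, with log2 responses between -1.78 and -0.93 in KO-labelled cells and between -1.02 and -0.25 in WT cells. The brightest, of a cross-hybridising type (_x_at), gave -0.98 in KO-labelled and -0.25 in WT cells. The dimmest gave -1.78 and -1.02. The other Dusp9 probe sets were not followed under the other scalings.

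Among the enzymes that prefer JNK and p38, Dusp16 (MKP-7) had 64.4 units after UVB and 441.7 without it in KO-labelled cells, against 108.8 and 463.5 units in WT cells. Unirradiated arrays were alike and both irradiated arrays were far below them. The gene was 6.86-fold lower after UVB in KO-labelled and 4.26-fold lower in WT cells, the largest falls of the 10 genes in either genotype. Dusp16 fell by 2.43 in log2 signal (limma SE 0.20 and adjusted p = 9.74e-06), and its response lay at percentile 1.39 of all tested genes in KO-labelled and 5.92 in WT cells. A second, dim Dusp16 probe set was below the floor on all 4 arrays and gives no fold.

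Dusp10 (MKP-5) had 50.2 units after UVB and 240.6 without it in KO-labelled cells, against 90.6 and 292.5 units in WT cells. Both irradiated values were low, 4.79-fold lower in KO-labelled and 3.23-fold lower in WT cells. Dusp10 fell by 1.97 in log2 signal (limma SE 0.20 and adjusted p = 3.31e-05). Its dimmer probe set was lower by at least 1.64-fold in KO-labelled cells and by 1.52-fold in WT cells.

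Dusp8 differed from Dusp10 and Dusp16. It had 168.7 units after UVB and 349.0 without it in KO-labelled cells, against 265.0 and 183.9 units in WT cells. The unirradiated KO-labelled array was highest and the irradiated KO-labelled array lowest. Dusp8 was 2.07-fold lower after UVB in KO-labelled cells and 1.44-fold higher in WT cells, and its fitted effect of -0.26 did not pass (limma adjusted p = 0.452). That effect turned to 0.72 after quantile normalization (limma adjusted p = 0.0651) and to 0.84 after centring, where it passed (limma adjusted p = 0.0317). A dimmer probe set had the same pair of directions at smaller size, 1.49-fold lower in KO-labelled and 1.20-fold higher in WT cells, and the dimmest was under the floor on both KO-labelled arrays.

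**Figure D2:**
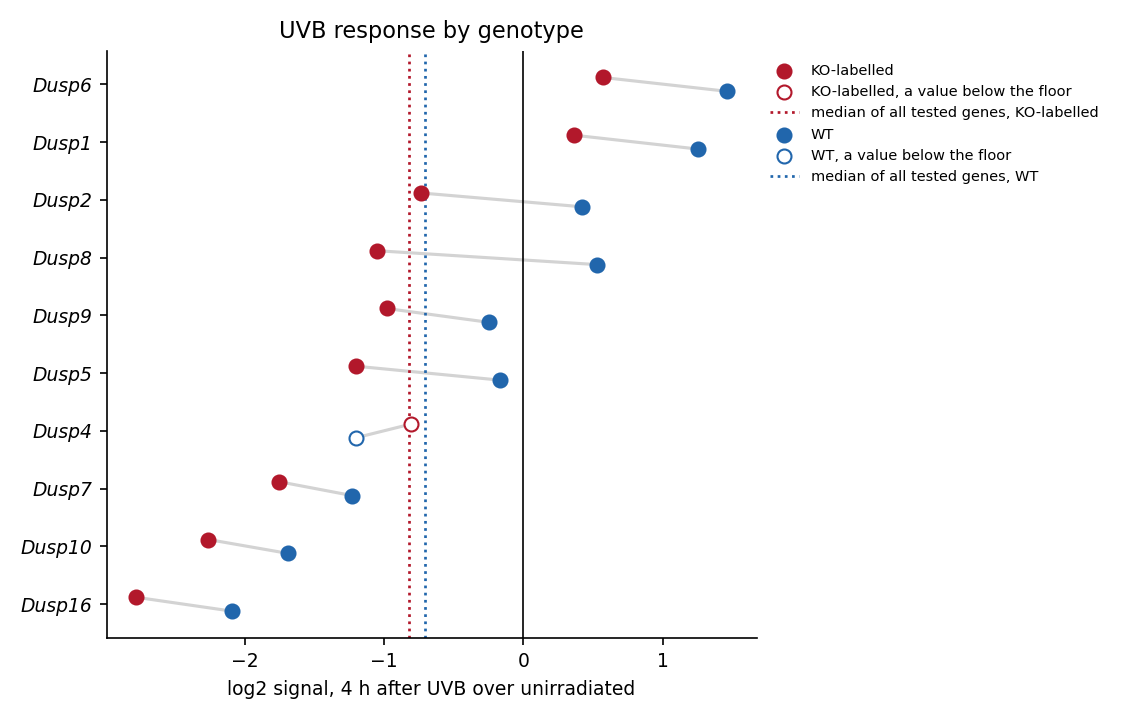
log2 signal 4 h after UVB over unirradiated for each gene, KO-labelled in red and WT in blue, with open points where a value was below the floor and dotted lines at the median of all tested genes (-0.82 in KO-labelled and -0.70 in WT cells). The KO-labelled point lies left of the WT point for every gene except Dusp4, whose irradiated values were below the floor.

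The UVB response was lower in KO-labelled than in WT cells for 9 of the 10 genes, against 59.8% of all tested genes. The exception, Dusp4, was below the floor on both irradiated arrays, so its difference of 0.40 is set by the floor. Response in KO-labelled minus response in WT cells was -1.58 on the log2 scale for Dusp8, -1.16 for Dusp2 and -1.03 for Dusp5. The Dusp8 value rests on its brightest probe set: the second gave -0.84, the third, below the floor on both KO-labelled arrays, gave 0.14, and the mean over probe sets gave -0.76. These 3 genes were past a log2 difference of 1 downward, as were 2.94% of all tested genes, and 0 were past it upward, against 1.34%. Dusp6 and Dusp1 both had a difference of -0.89, which means that the fold after UVB was 1.86 and 1.85 times as large in WT cells. For the other 4 genes it lay between -0.73 and -0.52. The median of the 10 genes was -0.81, against -0.08 over all tested genes. The same 9 genes lay below 0 with quantile normalization and with centring, against 47.9% and 51.8% of all tested genes. There 2 and 1 genes were past a log2 difference of 1 downward, against 2.72% and 2.92%. With the floor raised to 128.9 units, 6 of 8 tested genes lay below 0, against 64.8% of all tested genes. Dusp10 and Dusp16 turned to 0.28 and 0.07, but their irradiated values all lay below that floor, which sets these differences. With 4 arrays no residual is left for a test of this difference.

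After UVB, signal was lower in KO-labelled than in WT cells for 9 of the 10 genes, against 37.9% of all tested genes, and Dusp4 was below the floor in both. Dusp1 was 2.63-fold lower and Dusp5 was 2.11-fold lower in irradiated KO-labelled cells. These are 2 of 10 genes at 2-fold or more lower, against 1.47% of all tested genes, and 0 were 2-fold higher, against 1.41%. Dusp10, Dusp16, Dusp8 and Dusp9 were 1.80-fold, 1.69-fold, 1.57-fold and 1.46-fold lower. Dusp7, Dusp2 and Dusp6 were 1.28-fold, 1.22-fold and 1.11-fold lower. The median log2 difference was -0.60, against 0.05 over all tested genes. All 14 probe sets of the family at or above the floor on every array were lower in irradiated KO-labelled cells. They belong to the same 9 genes, so they are not separate evidence, and the share over all probe sets was not taken. Under quantile normalization and centring these 9 genes again lay below 0, against 46.8% and 52% of all tested genes. Summed fibroblast signal was higher in the irradiated KO-labelled cells, at 5503 units against 3284 in irradiated WT cells, and the part of such cells in the lower Dusp signal was not tested.

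Without irradiation the genes were split, 5 above and 5 below WT, where 26.8% of all tested genes were below, and 0 of 10 reached 2-fold, against 1.63% of all tested genes higher and 0.729% lower. Dusp8, Dusp2 and Dusp6 were 1.90-fold, 1.83-fold and 1.67-fold higher in KO-labelled cells, at percentiles 97.6, 97.0 and 95.1 of all tested genes. Dusp1 was 1.42-fold lower, at percentile 3.62, and Dusp4 was 1.32-fold lower. Dusp10 was 1.22-fold lower. Dusp5, Dusp7, Dusp9 and Dusp16 were within 1.14-fold of WT in either direction. The second Dusp8 probe set was 1.20-fold higher. The third, dimmest one went the other way, with 10.9 units in unirradiated KO-labelled cells, below the floor, against 36.4 units in unirradiated WT cells, at least 1.46-fold lower. The 3 Dusp8 probe sets thus disagreed on direction as well as size.

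**Figure D3:**
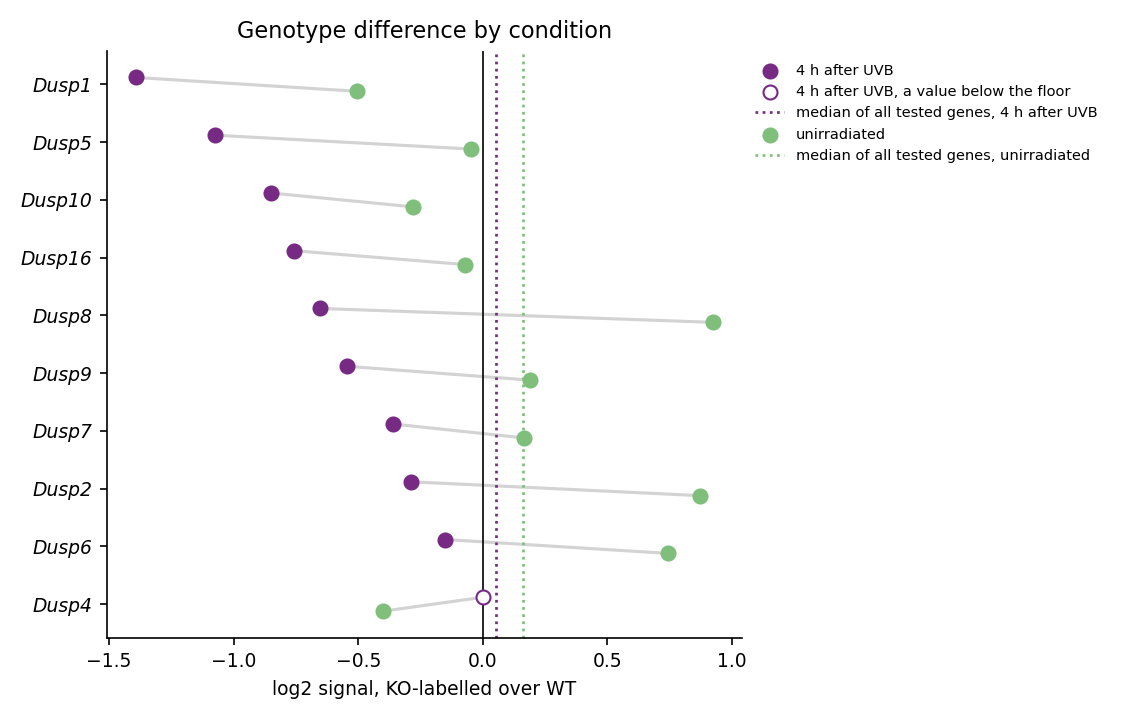
log2 signal of KO-labelled over WT cells for each gene, 4 h after UVB in purple and unirradiated in green, with dotted lines at the medians of all tested genes. All purple points except Dusp4, where both irradiated values were below the floor, lie below 0, while the green points fall on both sides.

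Dusp1 was the 1 gene of the family lower in KO-labelled cells over both conditions in the limma fit, against 0.642% of all tested genes, and 0 were higher, against 0.967%. It fell by 0.95 in log2 signal (limma SE 0.19 and adjusted p = 0.0439) and was lower in 2 of 2 conditions. The call was kept after quantile normalization (limma adjusted p = 0.0070) and median centring (limma adjusted p = 0.0121). It was lost without the intensity trend (limma adjusted p = 0.318), with genes taken as the mean of their probe sets (limma adjusted p = 0.177) and with only genotype in the model. Under those settings 0 of all tested genes were called for genotype in either direction. Dusp5 and Dusp10 had effects of -0.56 and -0.57, with limma adjusted p-values of 0.260 and 0.199. The genotype difference after UVB and both UVB responses use the same irradiated arrays, so these are views of the same 4 values and not separate evidence.

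The size of the UVB responses depended on how the arrays were scaled. In KO-labelled cells 2 of the genes were above 0 as deposited, 4 after quantile normalization and 5 after median centring, against 5.84%, 54.1% and 65.2% of all tested genes. In WT cells 4 were above 0 as deposited and 6 under each other scaling, against 9.22%, 53.3% and 66.2%. Dusp8 in KO-labelled cells had a log2 response of -1.05 as deposited, -0.01 after quantile normalization and 0.082 after centring. Dusp16 stayed at -1.72 and -1.65 in KO-labelled cells and at -1.12 and -1.02 in WT cells under quantile normalization and centring.

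**Figure D4:**
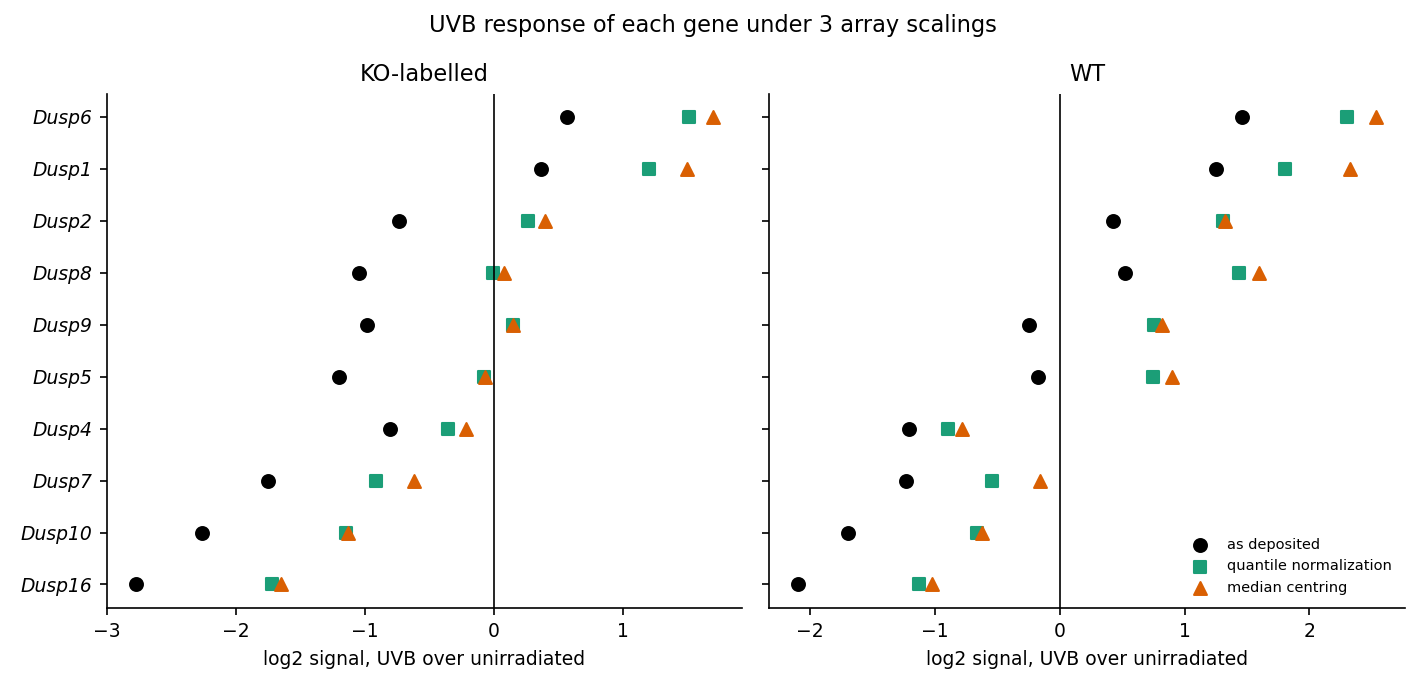
log2 UVB response of each gene in KO-labelled (left) and WT cells (right), as deposited (circles), after quantile normalization (squares) and after median centring (triangles). Dusp6 and Dusp1 lie above 0 and Dusp7, Dusp10 and Dusp16 below 0 under all 3 scalings in both genotypes, whereas Dusp2, Dusp5, Dusp8 and Dusp9 cross 0 in at least 1 genotype.

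The 2 genes with the lowest responses were also the 2 longest. Dusp16 spans 91.6 kb on chromosome 6 and Dusp10 41.3 kb on chromosome 1 (GRCm38.p6), and the other 8 genes span between 2.22 kb (Dusp2) and 16.4 kb (Dusp8). Dusp1 spans 2.88 kb on chromosome 17 and Dusp6 4.26 kb on chromosome 10. Across the 10 genes, gene span and UVB response had a Spearman correlation of -0.79 in KO-labelled and -0.60 in WT cells. Across 11366 tested genes with a span the values were -0.31 and -0.33. These are correlations across genes on the same arrays, given as a description, and genes are not independent replicates. Dusp7 was an exception, with a span of 7.17 kb and a low response in both genotypes. So was Dusp8 in WT cells, with a span of 16.4 kb and a log2 response of 0.53. The Dusp4 responses in these correlations are set by the floor.

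**Figure D5:**
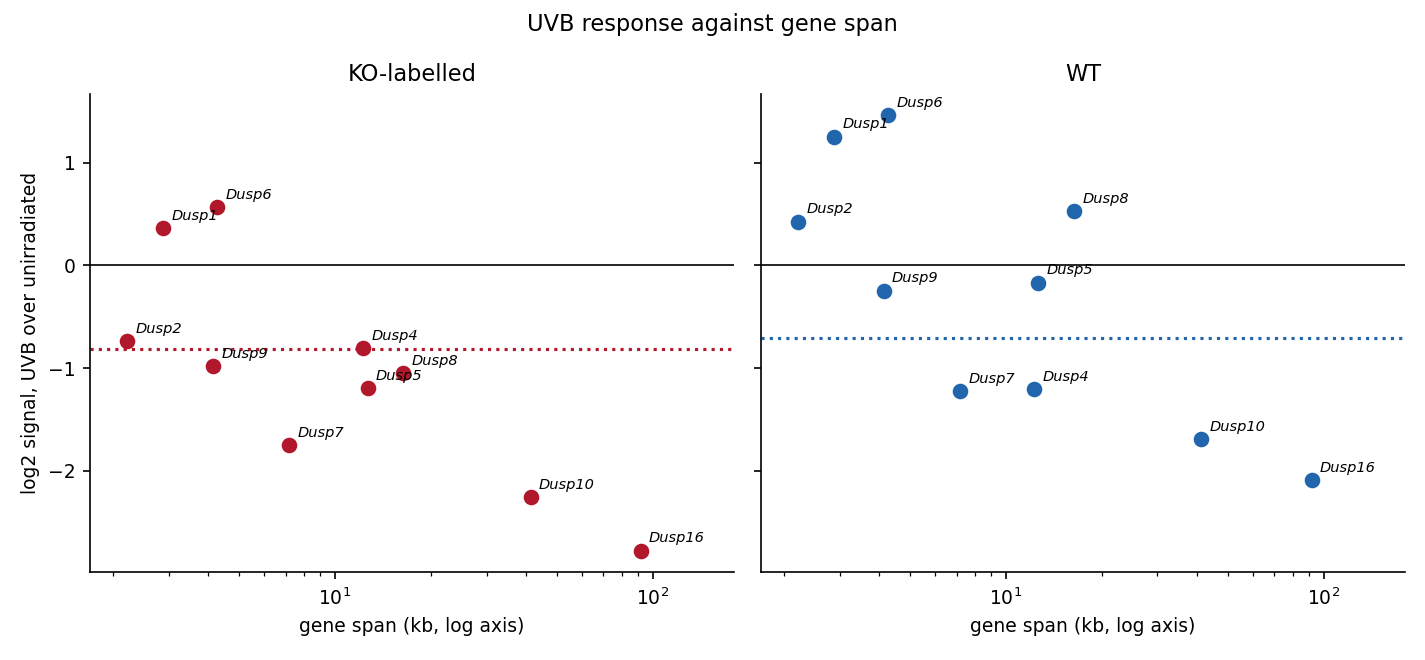
log2 UVB response against gene span (log axis) for the 10 genes in KO-labelled (left) and WT cells (right), with the median of all tested genes as a dotted line. Dusp10 and Dusp16, with spans of 41.3 and 91.6 kb, are the lowest points in both panels.

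Other phosphatases and the kinases themselves are given for comparison. The list of atypical dual-specificity phosphatases had 12 measured genes, Styx and Styxl1 among them. Most of the 12 encode small enzymes without the kinase-binding domain of MKPs. In the limma fit 0 of the 12 rose and 9 fell after UVB, against 0.703% and 69.4% of all tested genes. Their median effect was -0.81, against -0.75 over all tested genes. Dusp14 fell by 1.57 on the log2 scale (limma adjusted p = 7.49e-06) and Dusp12 fell by 1.12 (limma adjusted p = 0.000488). At the other end, Dusp22 fell by 0.51 (limma adjusted p = 0.00837), and Dusp28 had an effect of -0.18 that did not pass (limma adjusted p = 0.443). After quantile normalization 3 of the 12 rose and 1 fell, against 2306 and 2284 of 11418 tested genes. Dusp22 and Dusp28 were then above 0. In irradiated cells 7 of the 12 were above and 4 below WT in KO-labelled cells, against 55.9% and 37.9% of all tested genes. Of the 10 MKP genes 0 were above and 9 below. This contrast between lists was not tested.

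All 5 measured members of a list of other phosphatases that act on MAP kinases fell, against 69.4% of all tested genes. Ppm1d, which encodes the p53-induced phosphatase Wip1, fell by 1.67 (limma adjusted p = 0.000169) and Ppm1b fell by 1.22 (limma adjusted p = 2.57e-05). Ppp2cb, a catalytic subunit of PP2A, fell by 1.05 (limma adjusted p = 5.30e-05) and Ppm1a fell by 0.99 (limma adjusted p = 9.23e-05). After quantile normalization 3 of these 5 fell, against 2284 of 11418 tested genes, and after centring 0 did, against 1702 of 11431. Ppm1d was 4.22-fold lower after UVB in KO-labelled cells and 2.41-fold lower in WT cells.

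Of 6 measured MAP kinase genes, 5 fell and 0 rose, against 69.4% and 0.703% of all tested genes. Mapk14 itself fell by 1.46 (limma adjusted p = 3.34e-05) and Mapk8, encoding JNK1, fell by 1.13 (limma adjusted p = 0.000447). Mapk9, encoding JNK2, fell by 0.75 (limma adjusted p = 0.00188). Mapk13, encoding p38delta, had an effect of -0.16 that did not pass (limma adjusted p = 0.213). After quantile normalization 2 of 7 measured kinases fell and 1, Mapk13, rose, against 2284 and 2306 of 11418 tested genes. Mapk8 was then at -0.04 and Mapk9 at 0.22, neither past the threshold, and after centring they were at -0.03 and 0.35, with Mapk14 at -0.36 no longer passing (limma adjusted p = 0.0685). Of 7 measured feedback inhibitors of receptor to ERK signalling, 5 fell and 0 rose, again against 69.4% and 0.703% of all tested genes. Spred2 fell by 3.11 (limma adjusted p = 2.92e-06) and Spred1 fell by 2.89 (limma adjusted p = 6.38e-06), and both passed under all 3 scalings. Errfi1 fell by 1.29 (limma adjusted p = 1.08e-05) and Spry2 fell by 0.57 (limma adjusted p = 0.0398). After centring Errfi1 was at -0.19 and no longer passed (limma adjusted p = 0.150), and Spry2 lay above 0 under both other scalings. In irradiated cells 5 of these 7 inhibitors were above and 1 below WT in KO-labelled cells, against 55.9% above and 37.9% below over all tested genes.

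Dusp6 had the highest mean UVB response of the 10 genes, and its pattern over the 4 arrays was set against 5708 genes with at least 100 units on every array. By Euclidean distance between centred log2 profiles, Zfp36l1 was nearest at 0.28, followed by Tlcd2 at 0.39, Fam43a at 0.40, Tagln2 at 0.50 and Fgfbp3 at 0.51, leaving out genes with gene-model names. Zfp36l1, which encodes an RNA-binding protein of AU-rich elements, had 2539.9 units after UVB and 1689 without it in KO-labelled cells, against 2782 and 1264 units in WT cells. With 4 arrays many genes can share such a profile.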

How the data were processed

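RNA of 4 keratinocyte cultures was measured on 1 Affymetrix array each. Per the labels' protocols, Trizol extraction and an RNeasy cleanup preceded biotin labelling of 0.2 ug RNA. The authors deposited MAS5 signal, a linear intensity for each probe set, per the submitters' processing notes and the values; the labels and headers state neither a version nor a scaling target. The small number of arrays limits what can be measured.

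Of 45101 probe sets, 64 are controls and 34945 have exactly 1 gene symbol in the platform annotation, of which 34741 were found by gene ID in RefSeq (GRCm38.p6) with 0 symbols changed. Those naming several genes or no gene were left out, and 18193 genes remained, 11379 of them tested. Values were raised to the floor of 24.9 units and tested as log2 signal with limma 3.58.1 in R 4.3.3 (eBayes with intensity trend, adjusted p below 0.05). Pairwise calls were made at 2-fold. The fit was tested on simulated data. The 9 alternatives were quantile normalization, median centring, a lower floor (25th percentile, 9.38 units), a higher floor (75th percentile, 128.9 units), a 1.5-fold threshold, the mean over probe sets, leaving out cross-hybridising probe sets (_x_at and _s_at), limma without trend, and a limma model holding the tested factor alone.

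The text names all 10 Dusp genes. From each other list only genes at or above the floor on every array were eligible. Of these the text names the 2 with the highest and the 2 with the lowest mean UVB response. Mapk7, with a mean log2 response of -1.89, lay below Mapk14 but was left out by this rule. Spry4, at -0.24, lay above Spry2 and was left out too. The members and lists were chosen with earlier results of these data known. Summed marker signals are over the brightest probe set of each gene.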

Additional observations from a re-analysis of the deposited data

Results flagged for a closer look

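Dusp8 and Dusp2 had UVB responses of opposite direction in the 2 genotypes, lower in KO-labelled and higher in WT cells, and each group has 1 array, so the difference was not tested. Response in KO-labelled minus response in WT cells was -1.58 on the log2 scale for Dusp8 and -1.16 for Dusp2. After quantile normalization Dusp2 was above 0 in both genotypes, at 0.27 in KO-labelled and 1.31 in WT cells, and after centring at 0.40 and 1.33. Dusp8 in KO-labelled cells was at -0.01 after quantile normalization and 0.082 after centring, so under centring both Dusp8 responses were above 0 too. Dusp2 signal was between 29.8 and 54.5 units on all arrays, close to the floor of 24.9 units.

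The genotype difference also turned round between conditions for 5 genes, which were higher in KO-labelled than in WT cells without irradiation and lower after UVB. Of all tested genes, 73.1% were higher without irradiation and 37.9% were lower after UVB. The share that did both was not taken. The change in the genotype difference was -1.58 for Dusp8, -1.16 for Dusp2, -0.89 for Dusp6, -0.73 for Dusp9 and -0.52 for Dusp7. Without irradiation Dusp7 and Dusp9 lay near the middle of all tested genes, at percentiles 50.7 and 55.3. The unirradiated log2 difference of Dusp7 was 0.0022 after quantile normalization and 0.0031 after centring. These turns were not tested either, and they are the same 4 values per gene seen the other way round.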

How the results depend on the processing

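Under the 6 alternatives that change signal values, 0 of the tested family genes were higher in irradiated KO-labelled than in irradiated WT cells. Of all tested genes, between 47% and 57.5% were higher. With the higher floor only 8 family genes were tested, 6 of them below 0 and 2 at 0. At 2-fold, quantile normalization gave 2 genes higher and 2 lower after UVB in KO-labelled cells and 4 higher and 1 lower in WT cells, against 4.18%, 8.15%, 5.39% and 9.5% of all tested genes. Centring gave the same counts of 2, 2, 4 and 1, against 8.87%, 6.46%, 11.3% and 7.37%. Centring left 1 gene past a log2 difference of 1 between the responses, against 2.92%. With the floor at the 75th percentile, 8 genes were tested, 3 were lower after UVB in KO-labelled cells (32.3% of all), 1 was lower in irradiated KO-labelled than in irradiated WT cells (1.07%), and 1 was past a log2 difference of 1 between the responses (0.808%). At 1.5-fold, 8 genes were lower after UVB in KO-labelled cells (65.1% of all), 3 were higher in unirradiated KO-labelled than in unirradiated WT cells (8.74%), 5 were lower in irradiated KO-labelled cells (5.26%) and 7 had a lower response there (11.4%).

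In the limma fit for UVB, quantile normalization gave 3 genes falling, centring gave 4 rising and 3 falling, and the fit with only the tested factor gave 1 rising. For genotype, 0 family genes passed with the mean over probe sets, without the intensity trend and with only the tested factor, against 1. In those settings 0 of all tested genes passed. After quantile normalization and centring, in that order, the fitted UVB effect turned positive for Dusp2 (0.79 and 0.86), Dusp5 (0.33 and 0.42), Dusp8 (0.72 and 0.84) and Dusp9 (0.46 and 0.49). So did the UVB response in KO-labelled cells of Dusp2 (0.27 and 0.40) and Dusp9 (0.15 under both), that of Dusp8 under centring (0.082), and the response in WT cells of Dusp5 (0.74 and 0.90) and Dusp9 (0.76 and 0.82). The Dusp9 values rest on its brightest probe set, of the _x_at type. With the higher floor the difference of the responses turned to 0.28 for Dusp10 and 0.07 for Dusp16, and the genotype effect of Dusp9 to 0.042. Both irradiated values of Dusp10 and of Dusp16 lay below that floor, so their differences are set by it. The irradiated KO-labelled value of Dusp9 lay below it too. With the mean over probe sets the genotype effect of Dusp8 turned to -0.17. That mean takes in the dimmer Dusp8 probe sets, the dimmest of which was below the floor on both KO-labelled arrays. The cause of the other turns was not tested. Over all tested genes limma called 80 rising and 7899 falling after UVB as deposited, 2306 and 2284 with quantile normalization, and 4184 and 1702 with centring; for genotype it called 110 higher and 73 lower, 84 and 145, and 65 and 142. No replicate could be left out, and signal near the floor limits Dusp2 and Dusp4. No paired analysis was possible because each group has 1 array and the labels carry no replicate numbers.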
